A study of Rattus norvegicus with 3 samples.

Results

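The genes described here are 10 components of the Notch pathway: the ligands Jag1 and Jag2, the receptors Notch1, Notch2 and Notch3, the DNA-binding factor Rbpj, and the target genes Hes1, Hey1, Hey2 and Heyl. They were taken from a named list, as every probe set that the platform annotation gives to one of these symbols alone, which made 14 probe sets for 10 of the 14218 genes on the array. The list was drawn up with values of these arrays known, so the values below describe the genes and no test is made on them. The cells were granulosa cells, the follicle cells that surround the oocyte and make estradiol, of immature Sprague-Dawley rats, females aged 24 to 25 days. The rats had received pregnant mare's serum gonadotropin (PMSG), which grows follicles to the preovulatory stage, 48 h earlier. All cells carried an adenovirus at 50 pfu per cell and were cultured in Opti-MEM medium. The group Ad-NFIL3 + FSK/PMA carried NFIL3, a basic leucine zipper factor known mainly as a transcriptional repressor, and was treated with FSK/PMA from 24 h after infection. FSK/PMA was given for 6 h and consisted of forskolin at 10 uM, which raises cAMP, and phorbol 12-myristate 13-acetate at 20 nM, which activates protein kinase C, together used in place of the ovulatory hormone. The group Ad-GFP + FSK/PMA carried green fluorescent protein and had the same treatment, and the group Ad-GFP carried green fluorescent protein and had no FSK/PMA. Each group was 1 Affymetrix rat array hybridised with RNA pooled from 3 experiments, so there is no spread between samples, no p-value can be given, and every difference below compares pools.

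Notch signalling passes between touching cells. A Jagged or Delta-like ligand on one cell binds a Notch receptor on its neighbour, the receptor is cut by an ADAM protease and then by gamma-secretase, and the freed intracellular part enters the nucleus, where it joins RBPJ and Mastermind proteins and switches on Hes and Hey genes. Hes and Hey proteins are basic helix-loop-helix repressors that recruit Groucho (Tle) corepressors. In the mouse ovary the pathway is known for its part in the forming and growing follicle, with Jag1 in the oocyte and Notch receptors in granulosa cells.

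The start-site regions of the 3 members with the largest differences are shown because the pathway's own DNA-binding factor is known to act at Hes and Hey promoters. RefSeq tables for build GRCr8 held 11 promoter windows for 9 of the 10 members (Hey1 was not among them), each running from 250 bases before to 50 bases after a start site. Capitals in the Hes1 and Hey2 windows mark the RBPJ core letters TGGGAA on either strand (TTCCCA where the match is on the opposite strand). Capitals in the Jag1 window mark TGACG, the core of the cAMP response element, which is on the opposite strand there and reads CGTCA. All are written 5′ to 3′ along the gene.
Jag1, chr3:144894834-144895133, minus strand: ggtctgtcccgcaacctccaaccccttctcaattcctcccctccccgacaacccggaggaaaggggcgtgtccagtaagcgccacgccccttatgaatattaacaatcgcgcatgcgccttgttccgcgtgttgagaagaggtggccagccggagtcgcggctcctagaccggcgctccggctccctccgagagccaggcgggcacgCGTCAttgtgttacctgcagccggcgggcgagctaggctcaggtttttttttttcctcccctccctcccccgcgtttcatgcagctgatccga
Hes1, chr11:84212996-84213295, minus strand: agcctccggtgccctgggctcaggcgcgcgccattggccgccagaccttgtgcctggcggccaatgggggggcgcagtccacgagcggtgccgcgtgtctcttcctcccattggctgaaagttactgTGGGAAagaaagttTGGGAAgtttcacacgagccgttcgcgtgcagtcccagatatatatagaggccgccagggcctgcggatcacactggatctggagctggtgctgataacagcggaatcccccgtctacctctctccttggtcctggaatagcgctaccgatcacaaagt
Hey2, chr1:28640850-28641149, plus strand: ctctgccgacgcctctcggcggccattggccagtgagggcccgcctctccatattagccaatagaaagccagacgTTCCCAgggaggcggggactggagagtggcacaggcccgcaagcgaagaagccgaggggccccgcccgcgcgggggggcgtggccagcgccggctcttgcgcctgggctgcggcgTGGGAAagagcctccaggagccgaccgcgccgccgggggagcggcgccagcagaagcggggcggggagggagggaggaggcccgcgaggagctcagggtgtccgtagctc

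Hes1 had 2 matches to TGGGAA, starting 123 and 109 bases before the start site on the same strand. Hey2 also had 2, one starting 60 bases before the start site on the gene's strand and the other 175 bases before it on the opposite strand. The Hey2 match nearer the start lies inside the longer form CGTGGGAA, which was in 0.723% of all 33469 windows. The core alone was common: it was in 25.7% of all windows, and among members also in windows of Notch3 and Rbpj. The core TGACG, in 21.2% of all windows, was found in the windows of Jag1, Jag2 and Notch3, and in Jag1 its match began 43 bases before the start site. The full element TGACGTCA was in 1.83% of all windows. The NFIL3 sites TTACGTAA and TTATGTAA were in 0.12% and 0.893% of them. All motifs were searched on both strands, and none of these last 3 sequences was in a member's window. These are matches of letters within short windows and show no binding.

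A signal here is the deposited MAS5 intensity of a probe set, and the floor of 126 is the median signal over all probe sets and arrays, below which MAS5 values are noisy. A gene was counted as measured in a comparison when its brightest probe set was above the floor on at least 1 of the 2 arrays, and where only 1 array was above it the fold is a lower bound, written as at least. Signals of different probe sets depend on the probes and are not set against each other. The arrays were similar in brightness, with median signals from 115 to 136 and 48.1% to 51.8% of probe sets above the floor. Nfil3, the gene that the virus carries, had a signal of 5882 on the Ad-NFIL3 + FSK/PMA array, 1321 on the Ad-GFP + FSK/PMA array and 564 on the Ad-GFP array. The label of the Ad-NFIL3 array thus stood beside the highest Nfil3 signal. The position of its probe set relative to the viral insert is not known here.

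Of the 10 members, 4 were above the floor on all 3 arrays in their brightest probe set: Jag1, Hes1, Hey2 and Rbpj. Notch1 was above it on both FSK/PMA arrays, Hey1 only on the Ad-GFP array, and Jag2 and Notch3 only on the Ad-NFIL3 + FSK/PMA array. Notch2 and Heyl were below the floor on all 3 arrays in every probe set, and are therefore given as signals only.

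**Figure D1:**
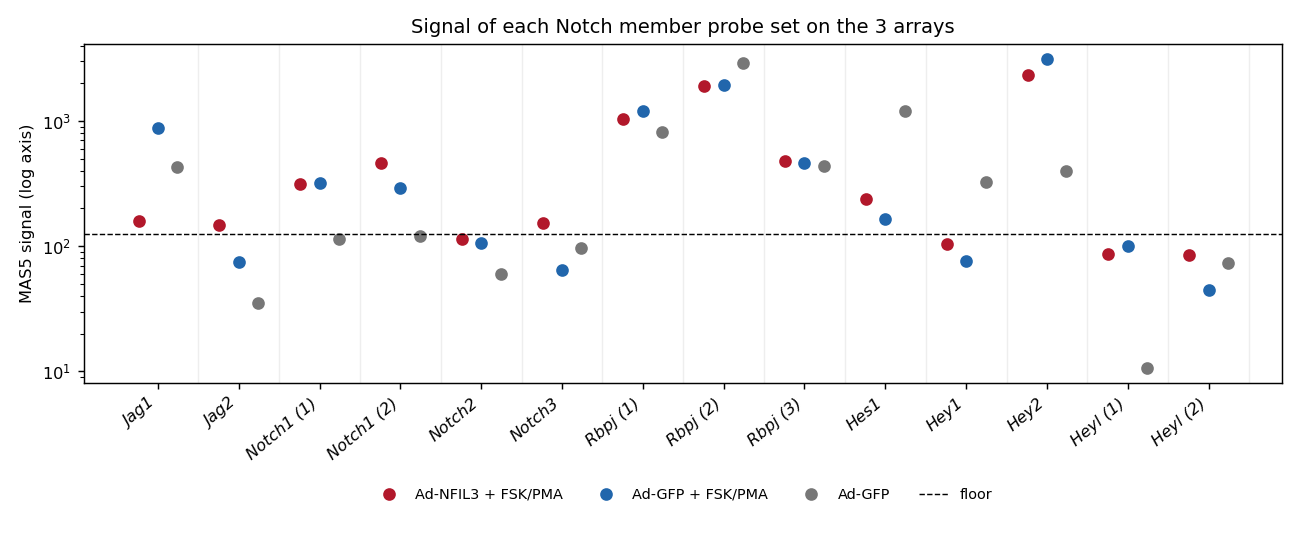
MAS5 signal (log axis) of each of the 14 member probe sets on the Ad-NFIL3 + FSK/PMA, Ad-GFP + FSK/PMA and Ad-GFP arrays, with 1 point per array and the floor of 126 as a dashed line; numbers in brackets tell probe sets of a gene apart. Jag1 is lowest on the Ad-NFIL3 array at 158, Hes1 is highest on the Ad-GFP array at 1205, and Hey2 is at 2341 and 3102 on the FSK/PMA arrays.

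The ligand Jag1 differed with FSK/PMA and with NFIL3, in opposite directions, and both comparisons use the same Ad-GFP + FSK/PMA array. Its signal was 158 on the Ad-NFIL3 + FSK/PMA array, 883 on the Ad-GFP + FSK/PMA array and 431 on the Ad-GFP array. FSK/PMA with the GFP virus stood above the unstimulated array, and the NFIL3 array stood below both. In cells with the GFP virus the signal was 2.05-fold higher with FSK/PMA than without, a log2 difference of 1.04, just past the 2-fold limit. Under FSK/PMA it was 5.60-fold lower with NFIL3 than with GFP, a log2 difference of -2.48. The NFIL3 array was also 2.73-fold lower than the unstimulated GFP array, a log2 difference of -1.45. The NFIL3 difference was the lowest of all 9397 genes measured in that comparison, while the FSK/PMA difference ranked 660 from the highest among 9395. These ranks are of floored values, so a gene under the floor on the NFIL3 array may have been lower than its bound shows. The Jag1 signal on the NFIL3 array lay close above the floor. Jag1 had 1 probe set.

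Jag2, the other Jagged ligand, had signals of 148 with NFIL3 and FSK/PMA, 74.7 with GFP and FSK/PMA and 35.5 with GFP alone. It was above the floor on the NFIL3 array only. Against the floor it was at least 1.18-fold higher there than on either of the other arrays, a bound that does not say whether it passes 2-fold. With no floor, on the log2(signal + 16) scale, it was 0.85 higher than with GFP and FSK/PMA and 1.67 higher than with GFP alone. Because it counts as measured only through the array where it is highest, a higher value in those comparisons was fixed by that choice.

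Among the receptors, Notch1 was the only gene above the floor on more than 1 array, and it was higher with FSK/PMA in both of its probe sets. The brighter probe set had signals of 463 on the Ad-NFIL3 + FSK/PMA array, 294 on the Ad-GFP + FSK/PMA array and 121 on the Ad-GFP array. The other had 316, 317 and 115 on the same arrays in the same order. Both FSK/PMA arrays were thus above the unstimulated array in each probe set. With the GFP virus, FSK/PMA was at least 2.34-fold higher by the brighter probe set and at least 2.52-fold higher by the other. Both probe sets were under the floor on the Ad-GFP array, so the direction against that array was fixed by the way Notch1 came to be measured. With no floor, on the log2(signal + 16) scale, the brighter probe set was 1.18 higher with FSK/PMA. Between the viruses the probe sets disagreed. The brighter was 1.57-fold higher with NFIL3, a log2 difference of 0.65, and the other had a log2 difference of -0.006.

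Notch3 had signals of 154 with NFIL3 and FSK/PMA, 64.7 with GFP and FSK/PMA and 96.4 with GFP alone. As for Jag2, only the NFIL3 array was above the floor, and the bound of at least 1.22-fold higher follows from the way it came to be measured. Notch2, the receptor best known from granulosa cells of the mouse, had signals of 115, 106 and 59.6 on the NFIL3, GFP with FSK/PMA and GFP arrays, all under the floor. No fold is given for it, and a signal under the floor does not show that the transcript is absent.

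Rbpj, through which all Notch receptors reach DNA, had 3 probe sets above the floor on every array, and they did not give the same direction with FSK/PMA. The brightest had signals of 1905 with NFIL3 and FSK/PMA, 1934 with GFP and FSK/PMA and 2905 with GFP alone, 1.5-fold lower with FSK/PMA. The next had signals of 1034, 1203 and 823 on those arrays, 1.46-fold higher with FSK/PMA. The dimmest had 480, 462 and 437, 1.06-fold higher. For comparison, in 1895 genes with 2 measured probe sets the FSK/PMA differences of the probe sets disagreed by a median of 0.34 on the log2 scale, and by up to 0.98 in 90 of 100 genes. The Rbpj differences of -0.59 and 0.55 lie farther apart than that, but they are the widest pair among 3 probe sets, which by itself widens the gap. With NFIL3 all 3 probe sets were within 1.16-fold, with log2 differences from -0.22 to 0.06.

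Of the target genes, Hes1 and Hey2 had large FSK/PMA differences, in opposite directions. Hes1, a repressor that also represses its own gene, had signals of 239 with NFIL3 and FSK/PMA, 166 with GFP and FSK/PMA and 1205 with GFP alone. Both FSK/PMA arrays were far below the unstimulated array. With the GFP virus it was 7.25-fold lower with FSK/PMA, a log2 difference of -2.86 that ranked 25 from the lowest among 9395 genes. The NFIL3 array was 1.44-fold higher than the GFP array under FSK/PMA, a log2 difference of 0.52, and 5.05-fold lower than the unstimulated array. The Hes1 signal of 166 on the Ad-GFP + FSK/PMA array, used in the first 2 of these differences, lay close above the floor. Hes1 had 1 probe set.

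Hey2, a Hes-related repressor known for its role in the heart and in arteries, had signals of 2341 with NFIL3 and FSK/PMA, 3102 with GFP and FSK/PMA and 397 with GFP alone. Here both FSK/PMA arrays were far above the unstimulated array. The FSK/PMA difference with the GFP virus was 7.81-fold higher, 2.96 on the log2 scale, which ranked 57 from the highest. NFIL3 was 1.32-fold lower than GFP under FSK/PMA, a log2 difference of -0.41, and 5.89-fold higher than the unstimulated array. Hey2 had 1 probe set. Hes1 and Hey2 thus lay toward opposite ends of the same comparison.

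Hey1, a relative of Hey2, was above the floor on the Ad-GFP array only. Because it counts as measured only through the array where it is highest, a lower value on the others was fixed by that choice. It had signals of 104 with NFIL3 and FSK/PMA, 75.9 with GFP and FSK/PMA and 323 with GFP alone. Against the unstimulated Ad-GFP array, Hey1 was at least 2.56-fold lower on each FSK/PMA array. There was no unstimulated NFIL3 array, so with NFIL3 the virus and the treatment differ together. Both FSK/PMA signals were under the floor, so the viruses cannot be set against each other. Heyl, the third Hey gene, had signals of 84.3, 45 and 74 in its brighter probe set and 87.0, 101 and 10.7 in the other, on the NFIL3, GFP with FSK/PMA and GFP arrays. These are all under the floor, and the probe sets had different orders.

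**Figure D2:**
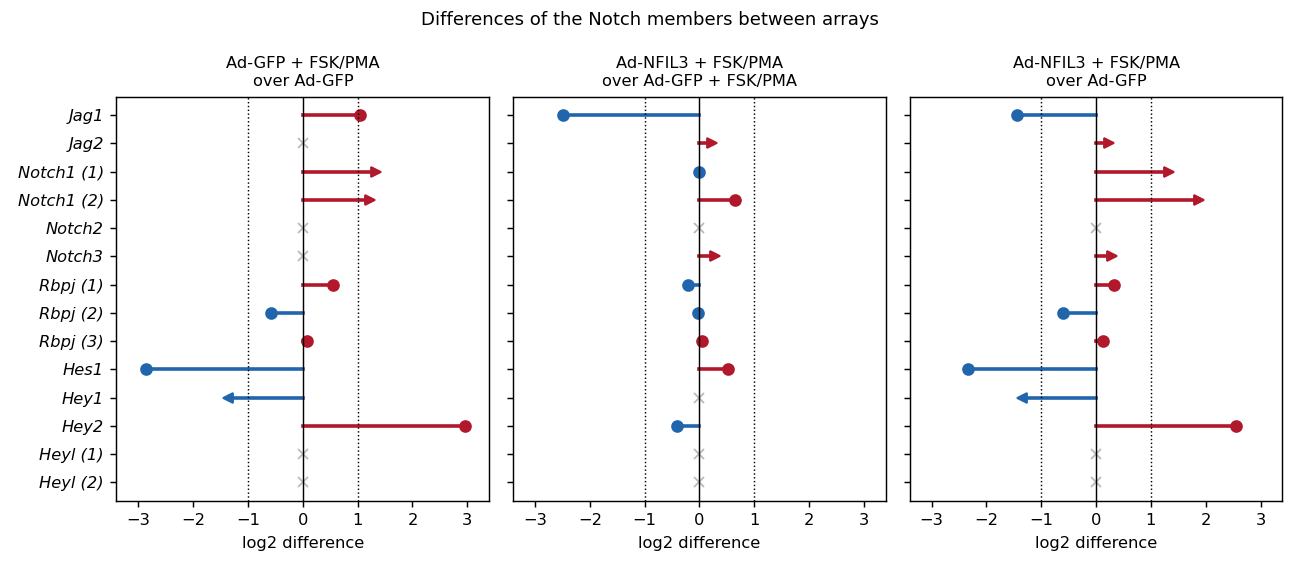
Log2 differences of the 14 member probe sets in the 3 comparisons; circles are measured differences, arrowheads are lower bounds with 1 array under the floor, grey crosses mark probe sets under the floor on both arrays, and dotted lines mark 2-fold. Hey2 (2.96) and Hes1 (-2.86) extend farthest with FSK/PMA, and Jag1 (-2.48) alone passes 2-fold with NFIL3.

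Counted as genes, 6 members were measured in the FSK/PMA comparison with the GFP virus: 3 (Jag1, Notch1, Hey2) were at least 2-fold higher, 2 (Hes1, Hey1) were at least 2-fold lower, and Rbpj was within 2-fold. Of all 9395 genes measured in that comparison, 7.43% were at least 2-fold higher and 11.4% at least 2-fold lower. Notch1 and Hey1 count as measured there only through the array where they are higher, so their directions were fixed and no median is given for the members. The median log2 difference of all genes was -0.10. In the NFIL3 comparison under FSK/PMA, 0 of 7 measured members were at least 2-fold higher, 1 (Jag1) was at least 2-fold lower, and 4 (Notch1, Rbpj, Hes1, Hey2) were within 2-fold. For the other 2, Jag2 and Notch3, only bounds under 2-fold could be given, which do not place them on either side of the limit. The shares of all 9397 genes were 1.34% higher and 0.958% lower. No median is given for the members here either, since Jag2 and Notch3 count as measured only through the array where they are highest. Between the NFIL3 array and the unstimulated GFP array, 2 of 8 measured members (Notch1, Hey2) were at least 2-fold higher and 3 (Jag1, Hes1, Hey1) at least 2-fold lower, against 6.52% and 9.05% of 9647 genes. The directions of Notch1 and Hey1 were again fixed by the array through which they were measured. Of the rest, Rbpj was within 2-fold, and Jag2 and Notch3 again had only bounds. Since the members were picked with these values known, nothing is read from their shares, and the comparisons share arrays and are not independent of each other.

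The split of all genes into higher and lower depended on how the arrays were scaled. The higher share of genes past 2-fold was 39.4% with FSK/PMA and 58.3% with NFIL3, but 50.1% and 20.2% when arrays were brought to a common median. That scaling moved the median of all genes by 0.13 and -0.23 on the log2 scale. Measured from the median of all genes, Jag1 differed by 1.14 with FSK/PMA under either scaling and by -2.52 and -2.53 with NFIL3. In the same way Hes1 differed by -2.76 and -2.75 with FSK/PMA, and Hey2 by 3.07 under either scaling. Apart from the floor, scaling moves all genes of an array alike, so these values could change little.

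**Figure D3:**
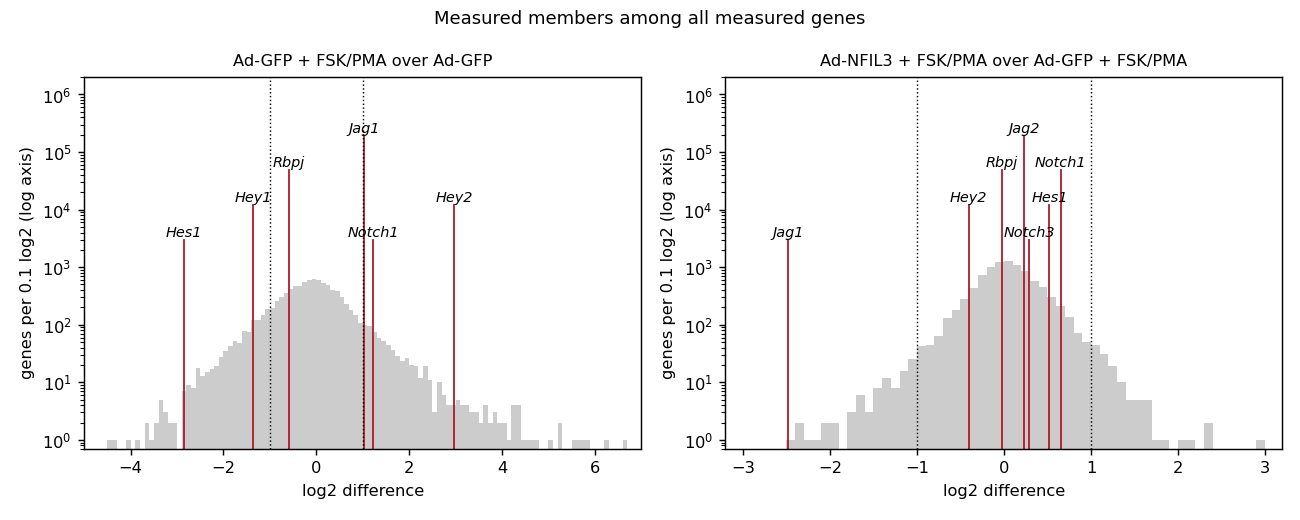
Histograms of log2 differences of all measured genes (grey, genes per 0.1 log2, log axis) with each measured member marked by a red line whose height carries no value, for FSK/PMA with the GFP virus (left) and NFIL3 under FSK/PMA (right); dotted lines mark 2-fold. Hes1 and Hey2 lie in opposite tails on the left. Jag1 lies at the lower end on the right, and the other members are drawn between the dotted lines, Jag2 and Notch3 as bounds.

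The only error that these arrays allow is the disagreement of probe sets of a gene, which leaves out all differences between cultures. Among genes with 2 measured probe sets it corresponded to a robust SD per difference of 0.36 for FSK/PMA (1895 genes) and 0.24 for NFIL3 (1846 genes). The FSK/PMA differences of Hes1 and Hey2 were 8.05 and 8.35 times the SD of their comparison. For Jag1 the NFIL3 difference was 10.2 times and the FSK/PMA difference 2.92 times. The FSK/PMA differences of Notch1 and Hey1, at 3.45 and 3.83 times, are bounds measured only through the higher array. The NFIL3 differences of Hes1 (0.52) and Hey2 (-0.41) were closer to the SD, at 2.15 and 1.67 times. Since the members were picked with these values known, the multiples describe size only and are no test. In the NFIL3 comparison the probe sets of a gene pointed the same way in 62.2% of genes, and in 74.9% with FSK/PMA, so a direction from 1 probe set within 2-fold is weakly held.

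The rest of the pathway was read from a list of Notch components, of which 57 genes were on the array and the others were not analysed here. In the FSK/PMA comparison 40 were measured, 3 (7.5%) were at least 2-fold higher and 1 (2.5%) was at least 2-fold lower, against 7.43% and 11.4% of all genes, and the median log2 difference was -0.001. The share of higher genes was thus near that of all genes. In the NFIL3 comparison 40 were measured and 0 passed 2-fold in either direction, with a median of -0.05, and for 2 of them only a bound was measured. With 1.34% and 0.958% of all genes past 2-fold in that comparison, a count of 0 in a list of this length is near the background. Between the NFIL3 array and the unstimulated array, 2 of 42 were at least 2-fold higher and 1 was at least 2-fold lower, against 6.52% and 9.05% of all genes.

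The Delta-like ligands Dll1, Dll3 and Dll4 and the non-canonical ligand Dlk1 were under the floor on all arrays, and Dlk2 was at it, with a signal of 126 on the NFIL3 array. The receptor Notch4 was also under the floor on all arrays. Of the enzymes that add sugars to the receptor, the fringe genes Lfng and Mfng were under the floor, and Poglut1, which adds O-glucose, had signals of 1449, 1123 and 1515 on the NFIL3, GFP with FSK/PMA and GFP arrays, within 2-fold throughout. Mib2, a ubiquitin ligase that readies ligands for uptake, had 460, 533 and 605. Jag1 was therefore the only canonical ligand above the floor on all 3 arrays, for the probe sets present here.

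The receptor proteases and gamma-secretase held 1 gene past 2-fold. Psen2, a catalytic subunit of gamma-secretase, had signals of 196 with NFIL3 and FSK/PMA, 213 with GFP and FSK/PMA and 933 with GFP alone. It was 4.37-fold lower with FSK/PMA and 1.09-fold lower with NFIL3. Both FSK/PMA arrays were thus below the unstimulated array. The other subunits measured, Ncstn, Aph1a and Psenen, were within 1.35-fold in both comparisons. Ncstn, the substrate receptor of the complex, had signals of 2584, 3203 and 3675 on the NFIL3, GFP with FSK/PMA and GFP arrays. Adam17, a sheddase, had 3745, 4226 and 4228.

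Of the nuclear partners, the 6 coactivator genes measured were all within 1.43-fold in both comparisons, among them Kat2b, an acetyltransferase, with signals of 2196, 2566 and 1859 on the NFIL3, GFP with FSK/PMA and GFP arrays. Corepressors had 1 of 12 past 2-fold. Tle3, a Groucho family corepressor that Hes and Hey proteins recruit, had signals of 1208, 1664 and 816 on those arrays, 2.04-fold higher with FSK/PMA and 1.38-fold lower with NFIL3. Its relative Tle1, named after its values were seen, had 468, 750 and 375 and fell just short of 2-fold with FSK/PMA, at 0.999 on the log2 scale, and was 1.6-fold lower with NFIL3. For Tle3 and Tle1 alike, both differences use the same Ad-GFP + FSK/PMA array. Hdac2, a histone deacetylase and the brightest corepressor probe set, had 6624, 7542 and 5747.

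Among genes that control receptor turnover, Dtx2, a Deltex ubiquitin ligase, had signals of 448 with NFIL3 and FSK/PMA, 463 with GFP and FSK/PMA and 199 with GFP alone. It was 2.32-fold higher with FSK/PMA and 1.03-fold lower with NFIL3. Nedd4, a ubiquitin ligase with many substrates, had 17424, 15145 and 21124 on those arrays, within 2-fold. Other Hes-like and Id genes were mostly within 2-fold. Bhlhe40, a repressor related to Hes proteins and known from the circadian clock, had 838, 836 and 412, 2.03-fold higher with FSK/PMA and with a log2 difference of 0.004 with NFIL3. Hes5, Hes2, Hes3 and Nrarp, a feedback inhibitor of Notch, were under the floor on all arrays. Hes6, which opposes Hes1 in the mouse and was named after its values were seen, had 1784, 965 and 1742 on the NFIL3, GFP with FSK/PMA and GFP arrays, 1.81-fold lower with FSK/PMA and 1.85-fold higher with NFIL3. Both Hes6 differences use the same Ad-GFP + FSK/PMA array, and the NFIL3 array differed from the Ad-GFP array by 0.034 on the log2 scale. Id2, an inhibitor of basic helix-loop-helix factors, had 16604, 10556 and 10153, 1.57-fold higher with NFIL3. Its relatives Id1 and Id3, named after their values were seen, were 1.61-fold and 1.62-fold lower with NFIL3, so the Id genes did not share a direction.

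**Figure D4:**
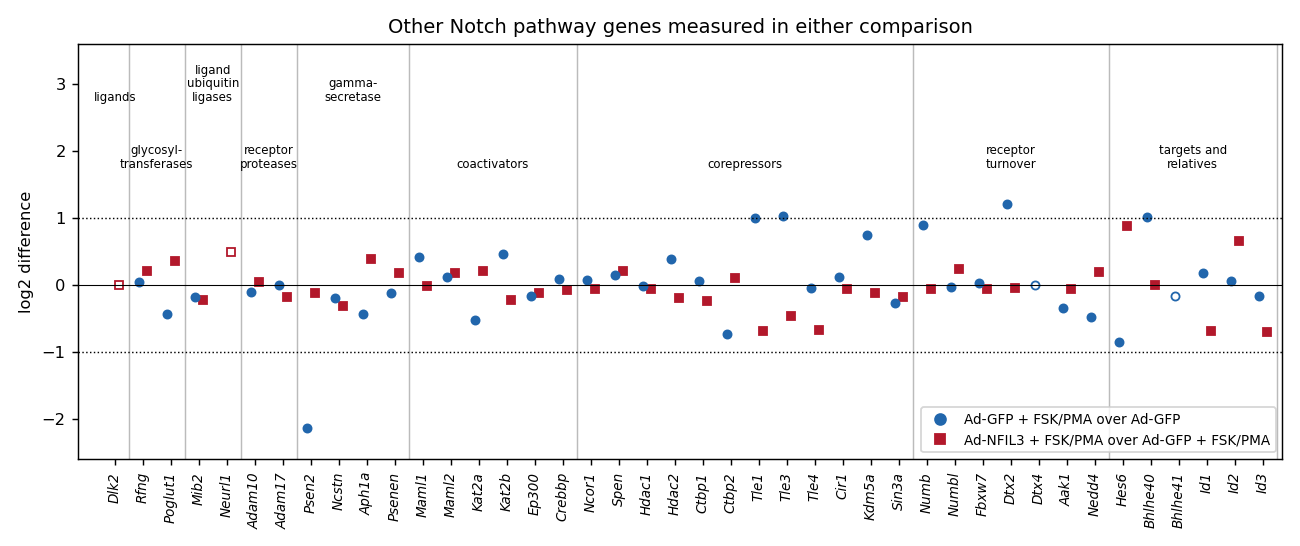
Log2 differences of the other Notch pathway genes measured in either comparison, grouped by role; blue circles are FSK/PMA with the GFP virus, red squares are NFIL3 under FSK/PMA, open symbols are lower bounds, and dotted lines mark 2-fold. Psen2 at -2.13 is farthest from 0, and all filled red squares lie within 2-fold.

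Genes whose pair of differences lay nearest to a member's were looked up among 5082 or 5083 genes above the floor on every array and with at least 4 times the floor on 1 of them. Likeness was the Euclidean distance between log2 differences over 3 arrays, so a small distance is readily met near the centre. Nearest to Jag1 was Psat1, an enzyme of serine synthesis, with signals of 204, 1017 and 528 on the NFIL3, GFP with FSK/PMA and GFP arrays and a distance of 0.19. The next, Epb41l3 and Csrnp3, were both at 1.05, 5.49 times as far away. Nearest to Hes1 were Fhod3, a formin, Amotl2, an angiomotin family gene, and Pld1, a phospholipase, at 0.04, 0.09 and 0.10. Fhod3 had signals of 371, 265 and 1949 on those arrays. Nearest to Hey2 were Pla2g4a, the phospholipase that frees arachidonic acid, Tnfrsf12a, a cytokine receptor, and Hs3st1, a heparan sulfate sulfotransferase, at 0.12, 0.18 and 0.19. Pla2g4a had signals of 1842, 2548 and 304. Notch1 and Hey1 were placed by their floored values. Their FSK/PMA differences are bounds, and the NFIL3 difference of Hey1 was set by the floor alone. The genes nearest to these placed values were Klhl30, Gem and Mrps12 for Notch1 and Selenbp1, Ssbp2 and Mettl3 for Hey1, all within 0.07. Those distances are to floored values and do not show a shared pattern.

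Notch genes are also active in blood vessels and oocytes, so markers of other cells were read beside the members. In bulk RNA, fewer cells of a type and less RNA per cell cannot be told apart. Each sum below adds the raw signals of all listed markers on the array, also those under the floor. Such a sum follows its brightest markers and does not measure cell content. Of 11 granulosa markers on the array, 11 were above the floor on at least 1 array, and their summed signal was 89583 with NFIL3 and FSK/PMA, 136953 with GFP and FSK/PMA and 128483 with GFP alone. With FSK/PMA, 3 of the 11 were at least 2-fold higher: Cyp19a1 (at least 19.8-fold), Star (4.89-fold) and Cyp11a1 (3.08-fold), all of steroid synthesis. A further 4 were at least 2-fold lower: Hsd17b1 (3.76-fold), Foxl2 (3.39-fold), Nr5a2 (3.00-fold) and Lhcgr (2.68-fold). With NFIL3, 0 were higher by 2-fold or more and 4 were lower by as much, namely Hsd17b1 (3.07-fold), Inhba (2.57-fold), Cyp19a1 (2.51-fold) and Lhcgr (2.15-fold). Foxl2, a defining granulosa factor, was above the floor on all 3 arrays. Of 9 endothelial markers only Kdr and Egfl7 were above the floor on any array, with Pecam1, Tek and Vwf under it on all, and the sum was 744, 657 and 697 on the NFIL3, GFP with FSK/PMA and GFP arrays. Of 5 oocyte markers only Zp2 was above the floor, with Gdf9 and Bmp15 under it. Zp2 had signals of 269, 406 and 891 on those arrays, 1.51-fold lower with NFIL3 and 2.20-fold lower with FSK/PMA, and the oocyte sum was 430, 575 and 967. Of 12 theca and stroma markers, 7 were above the floor on some array, with Cyp17a1 and Insl3 under it on all, and the sum was 1597, 1132 and 1476. Dcn, decorin, was the only one of them past 2-fold in the FSK/PMA or NFIL3 comparison, 2.45-fold higher with NFIL3. Leukocyte markers, 7 of 10 above the floor, summed to 3622, 3204 and 2537, with Cd14 2.46-fold higher with FSK/PMA, and the 2 red cell markers to 15713, 18367 and 19936. The part of other cells in the members' differences was not tested.

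The largest differences were recomputed with other scalings, floors and choices of probe set. With FSK/PMA, Hey2 ranged from 2.50 to 3.10 and Hes1 from -2.86 to -1.14 on the log2 scale. With NFIL3, Jag1 ranged from -2.72 to -0.69, the last being a bound set by the highest floor, which lies above its signal on the NFIL3 array. The small NFIL3 differences of Hes1 (0.29 to 0.52) and Hey2 (-0.64 to -0.35) kept their signs and stayed within 2-fold wherever they were measured.

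**Figure D5:**
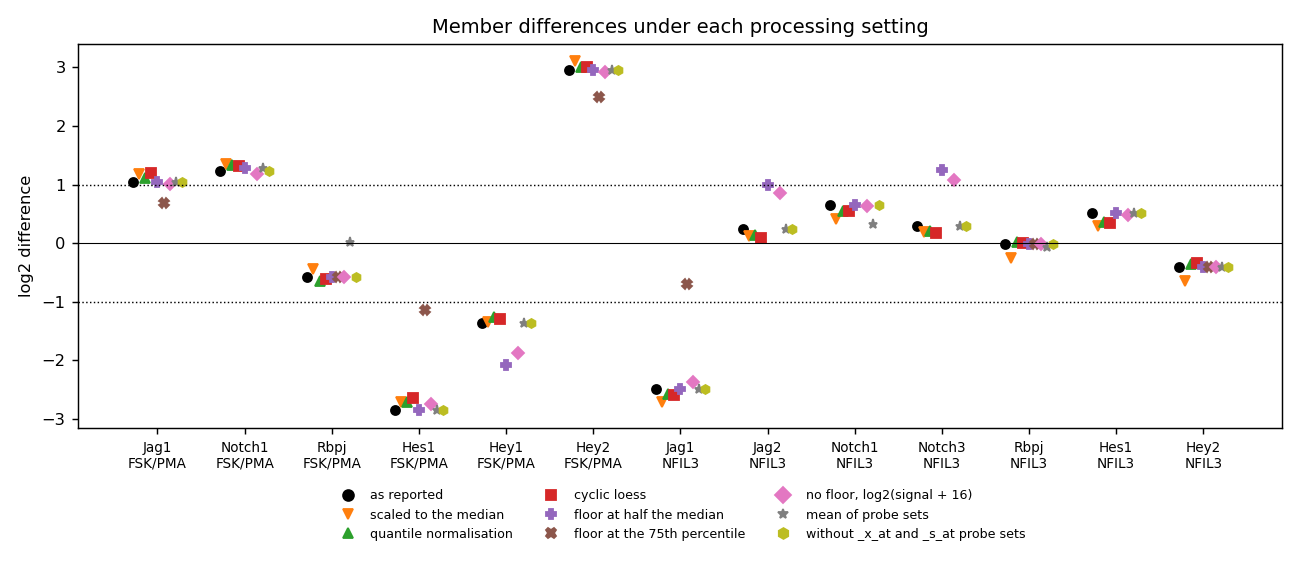
Log2 differences of each measured member under the reported setting (black circles) and 8 alternatives (coloured symbols), for FSK/PMA with the GFP virus (left) and NFIL3 under FSK/PMA (right); dotted lines mark 2-fold. Hey2 and Hes1 with FSK/PMA stay past 2-fold under every setting, and Jag1 with NFIL3 does so except with the floor at the 75th percentile, where it is a bound at -0.69.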

How the data were processed

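The authors deposited linear MAS5 signals, 1 intensity for each probe set; per the submitters' processing notes the software was MAS5, of a version not given in the sources used here. Each array had a 2% trimmed mean of 500, a scaling made before deposit. MAS5 subtracts mismatch signal, which makes low values noisy. Here arrays were set to exactly equal trimmed means, signals were floored at 126 and log2 was taken (Python 3.11.15, pandas 2.3.3; limma 3.58.1 for loess). Of 31099 probe sets, 20832 had 1 gene symbol, 436 several and 9831 none; 20764 matched the GRCr8 gene table by Entrez ID. A gene is its probe set with the highest mean signal. Differences of 2-fold or more were counted, with no test at 1 array per group. The number of arrays limits the precision. Code was tested on simulated data. The members, the pathway list and the marker lists were chosen with earlier results of these data known.

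All members were named, with other pathway genes past 2-fold or brightest in their role, and the 3 nearest genes of each member past 2-fold. Nearest genes needed 4 times the floor on an array, 1 direction over their measured probe sets and no placeholder symbol. Of the markers, those past 2-fold in the FSK/PMA or NFIL3 comparison, those above the floor in the endothelial and oocyte lists and defining ones under the floor were named, a choice made after their values were seen. Genes under the floor, and other subunits of a complex, were named to complete a count; any other gene outside this rule is said to be so. Alternatives were 3 scalings, 3 floors and 2 treatments of probe sets.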

Additional observations from a re-analysis of the deposited data

How the results depend on the processing

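No paired analysis was possible because each group has 1 array, and for the same reason no array could be left out. No member past 2-fold changed direction in those of the 8 alternatives in which it was measured. Notch1 and Hey1 were not measured with the floor at the 75th percentile. Wherever a member was a bound its direction was fixed by the floor, so such a setting could not have shown a change. Rbpj, within 2-fold, ranged from -0.26 to 0.02 with NFIL3 and from -0.64 to 0.01 with FSK/PMA, and so had no settled direction. With the floor at the 75th percentile, Jag1 was 0.69 with FSK/PMA and -0.69 with NFIL3, and Hes1 was -1.14 with FSK/PMA; these are bounds that the higher floor sets. Hey1 with FSK/PMA was -2.09 with the floor at 0.5 times the median and -1.88 with no floor. With those settings Notch3 was 1.25 and 1.07 with NFIL3, and Jag2 was 0.99 and 0.85 with NFIL3 and 1.23 and 1.67 between the NFIL3 and Ad-GFP arrays, all resting on signals under the reported floor.

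Counts past 2-fold followed the floor. With the floor at the 75th percentile they were, for all genes, 420 higher and 402 lower with FSK/PMA, 36 and 48 with NFIL3, and 343 and 381 between the NFIL3 array and the Ad-GFP array. With no floor, log2(signal + 16), they were 1315 and 1751, 903 and 552, and 1472 and 1419. With the floor at 0.5 times the median the NFIL3 counts were 347 and 157, and with arrays at a common median 48 and 190. For members, the 75th percentile floor left 1 higher and 1 lower with FSK/PMA, 0 lower with NFIL3, and 1 and 1 between the NFIL3 and Ad-GFP arrays; the lower floor and no floor each gave 1 higher with NFIL3. For other pathway genes with FSK/PMA, median scaling gave 5 higher, the 75th percentile floor 1 higher and 0 lower, the lower floor 2 lower and no floor 7 lower. With NFIL3 the lower floor gave 1 higher, and no floor 6 higher and 2 lower. Between the NFIL3 and Ad-GFP arrays, median scaling gave 1 higher, the lower floor 4 higher, the 75th percentile floor 0 higher and 0 lower, and no floor 4 lower. The causes were not tested beyond the floor's own construction.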
